A study of Caenorhabditis elegans and Caenorhabditis briggsae with 12 samples.

Results

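The baseline transcriptome of *C. elegans* larvae in the second larval stage (L2) was described from the libraries of the N2 control group, called NHS for no heat shock. They were chosen by their labels, and they number 3 of the 12 libraries of the series. N2 is the Bristol wild-type strain, with no transgene or mutant allele. Synchronized animals had been hatched and starved as L1 larvae, fed on plates at 20 °C to about the middle of L2, and then left at 20 °C while the other N2 group was heated. The replicates are biological replicates of whole, pooled animals, so a gene used in few cells and a gene weakly used in many cells cannot be told apart, and neither can fewer cells of a type and less RNA per cell. The counts of the heated libraries and of the other species, *C. briggsae*, were not used for any value below. The authors' values are labelled as scaled over all N2 libraries together, so the heated N2 libraries can still enter through that scaling.

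An L2 larva is a small animal whose mass is mostly muscle, intestine and epidermis. The epidermis makes the cuticle, a layered coat built largely of collagens, which is shed and rebuilt at the end of each larval stage, and many cuticle genes are transcribed in pulses within each molting cycle. The nervous system is nearly complete at this stage, while the gonad holds only dividing germ cells and a few somatic cells, with neither sperm, oocytes nor yolk production.

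The measurement is the normalized count, a gene's estimated number of reads as scaled between libraries by the authors. Over the 20213 genes, the library with the lowest total held 32228419 normalized counts and the one with the highest 32533962. The spacing of the lowest values puts the assigned reads at about 32800000 to 39000000. A count of 0 therefore allows up to 3 reads per library, or 2.95, 2.51 and 2.66 normalized counts in replicates 1 to 3, a limit that covers counting error only. Over the 13890 genes averaging at least 10, Pearson's r of log2(normalized count + 1) across genes was 0.993 for replicates 1 and 2, 0.993 for 1 and 3 and 0.992 for 2 and 3, as a description, since genes are not independent replicates.

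The mRNA counts were concentrated in few genes. The 10 most abundant genes held 7.56% ± 0.17 of the counts (SD, n = 3), the 100 most abundant held 30.8, 31.4 and 31.03% in replicates 1 to 3, and the 1000 most abundant held 69.9, 70.2 and 69.96%. As few as 291 genes held 50% of all counts, which is 1.44% of the genes, 3698 held 90% and 9063 held 99%. At the other end, the 9984 genes with a mean under 100 shared 0.516% of the counts. Protein-coding genes took up 99.95% of the counts, and 215 annotated pseudogenes took up 0.0245%.

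**Figure D1:**
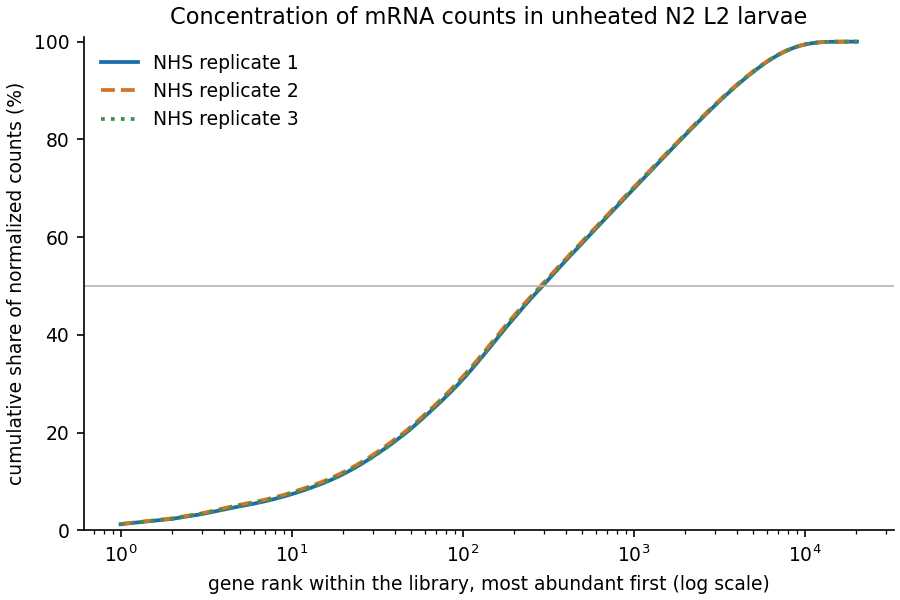
Cumulative share of normalized counts (%, vertical axis) against gene rank within each library (log scale), with 1 line for each of the 3 NHS replicates and a grey line at 50% of the counts. The lines nearly coincide and cross the grey line at 294, 286 and 291 genes in replicates 1, 2 and 3.

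Genes were present over a wide range of levels. At least 10 normalized counts in all 3 libraries were found for 13453 genes, 66.6% of all genes, at least 100 for 9973, at least 1000 for 3989 and at least 10000 for 489. The median gene had a mean of 107 normalized counts. No count was listed in any of the 3 libraries for 1475 genes, 7.3% of all genes, and 2093 further genes were at 0 in 1 or 2 libraries. The highest value found for any gene that was at 0 in another library was 21.3, so no gene was abundant in 1 replicate and missing in another.

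The most abundant gene by counts was *pals-26*, a member of a family known for its part in the response to intracellular pathogens. It had 408576, 419824 and 394384 normalized counts in replicates 1 to 3, 1.26% of all counts. The other 37 *pals* genes together averaged 1651 normalized counts, 0.00509% of the total, and the next in order, *pals-23*, had 394, 427 and 435. *pals-26* lies on chromosome III from 4375154 to 4378907 (WBcel235), and 52.4% of its longest annotated transcript lies outside the longest coding region. An annotated pseudogene on the same strand overlaps it. The deposited values are per gene and do not show where in the gene the reads fell, and whether the reads come from its coding part was not tested.

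The next places by counts belonged to translation and muscle. *eef-1A.1* (chromosome III, 6970026 to 6971712), which brings aminoacyl-tRNA to the ribosome, had 348686, 377468 and 375578 normalized counts, and *eef-2*, the factor that moves the ribosome along the mRNA, had 316643, 339099 and 337343. *unc-54* (chromosome I, 14855901 to 14863482), the major myosin heavy chain of the body wall muscle, had 288580, 329668 and 294010. *anc-1*, a giant protein that ties nuclei to actin, followed with 226284, 241090 and 237057, and *unc-22*, the muscle protein twitchin, with 166912, 174161 and 167867. In each of these 5 genes the CV between replicates was under 10%.

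Of the 30 genes with the highest counts, 7 encode cytosolic ribosomal proteins, 5 cuticle collagens, 3 proteins of the body wall muscle and 2 translation factors. Single entries were *ant-1.1*, the mitochondrial ADP/ATP carrier (158336 ± 1512, SD, n = 3), *asp-1*, an aspartyl protease of the intestine (147159 ± 7781), *fasn-1*, the fatty acid synthase (132575 ± 12718), *ahcy-1*, which breaks down S-adenosylhomocysteine (131089 ± 2679), *COX1* of the mitochondrial genome (122611 ± 11725), *atp-2*, the beta subunit of the ATP synthase (122426 ± 737), *vab-10*, a linker of epidermis and cuticle (115047 ± 9460), *act-1*, an actin (106611 ± 8887), and *bcf-1* (134856 ± 4840). Among the 100 genes with the highest counts, 42 encode cytosolic ribosomal proteins.

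Counts grow with the length of an mRNA, so levels of different genes were compared per kilobase of coding length. On that scale 15 of the 20 highest genes encode ribosomal proteins, 2 are the collagens *col-117* and *col-3*, and the others are *pals-26*, *eef-1A.1* and *ant-1.1*. *rpl-41.2*, whose coding region of 66 bases is among the shortest, came first with 1060255 normalized counts per kilobase, followed by *pals-26* (315231) and *eef-1A.1* (264395). Divided by the longest annotated transcript in place of the coding region, *rpl-41.2* stood at 249917 per kilobase, *eef-1A.1* at 238936 and *pals-26* at 149906, in place 7. The long muscle genes stood much lower per kilobase of coding length than by counts, with *unc-54* at 51636, *unc-22* at 7900 and *unc-89* at 4460.

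Cytosolic ribosomal protein genes were the largest group, with 15.3, 15.3 and 15.7% of the counts in replicates 1 to 3 (mean 15.4% ± 0.19, SD). Of the 82 genes, 80 had at least 1000 normalized counts in all 3 libraries, against 3989 of all 20213 genes. The highest by counts were *rpl-3* (162024, 163084 and 163426), *rla-0*, a stalk protein of the large subunit (149967, 159301 and 159248), *rps-0* (127045, 125406 and 128005) and *rack-1*, a scaffold on the small subunit (122965, 119716 and 120258). Per kilobase the quartiles of the group were 108859 and 140494, beside 5.98 and 633 for all genes. The genes at the low end are named here after their values were seen.

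The lowest were *rpl-42*, with 1.97, 2.50 and 4.43 normalized counts, and *rpl-37*, with 76.7, 104.5 and 94.0. Next came 2 genes whose names differ from that of another gene only in the last digit. Per kilobase of coding length *rpl-24.2* stood at 4988 and *rpl-24.1* at 140557, and *rpl-11.1* stood at 10093 and *rpl-11.2* at 126844. Of a further such pair, *rpl-41.1* stood at 46116 and *rpl-41.2* at 1060255. How alike the genes of each pair are was not compared, and a shared name does not make them copies. Where copies are similar, shared reads can be split by the estimate, and their single values are uncertain.

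Translation factors held 3.89% ± 0.12 of the counts in 44 genes. All 44 had at least 10 normalized counts in every library, against 66.6% of all genes. *eef-1A.1* and *eef-2* supplied most of the list's counts, with *pab-1*, the poly(A)-binding protein (89375, 85674 and 86883), and *eef-1G* (77425, 82984 and 83312) next. The initiation factor gene *eif-3.C* had 16975, 17467 and 17593. The 31 aminoacyl-tRNA synthetases, which load tRNAs with their amino acids, held 0.544% ± 0.012 and reached 17022 in *iars-1*, the enzyme for isoleucine.

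Energy metabolism formed another large block. The 71 nuclear genes of the respiratory chain and the ATP synthase held 2.04% ± 0.016 of the counts, the 19 enzymes of the TCA and glyoxylate cycles 0.924% ± 0.014 and the 19 glycolysis enzymes 0.651% ± 0.020. *atp-2* was the highest of the first group with 122831, 122873 and 121575 normalized counts. Citrate synthase, *cts-1*, had 46375, 44055 and 45700, and enolase, *enol-1*, had 33405, 32018 and 33469. *icl-1*, the enzyme of the glyoxylate shunt, which lets nematodes make sugar from fat, averaged 16867 and was chosen after its value was seen.

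Of the 12 proteins encoded by mitochondrial DNA, 8 had at least 1000 normalized counts in every library and together nearly all of the group's 0.936% ± 0.071. *COX1* had 128384, 109119 and 130330, and *CYTB*, the cytochrome b of complex III, had 55201, 53416 and 58406. The other 4, all subunits of complex I and named after their values were seen, were listed far lower. *ND3* averaged 97.6, *ND6* 94.0, *ND2* 54.2 and *ND4L* 7.05, while *ND4* (11581) was the lowest of the other subunits of the same complex. Why these 4 are listed so low was not tested, and a low value in these files need not mean that a gene was silent. The mitochondrial group had a median log2 difference from the gene means of 0.07, -0.14 and 0.11 in replicates 1 to 3, lowest in replicate 2.

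**Figure D2:**
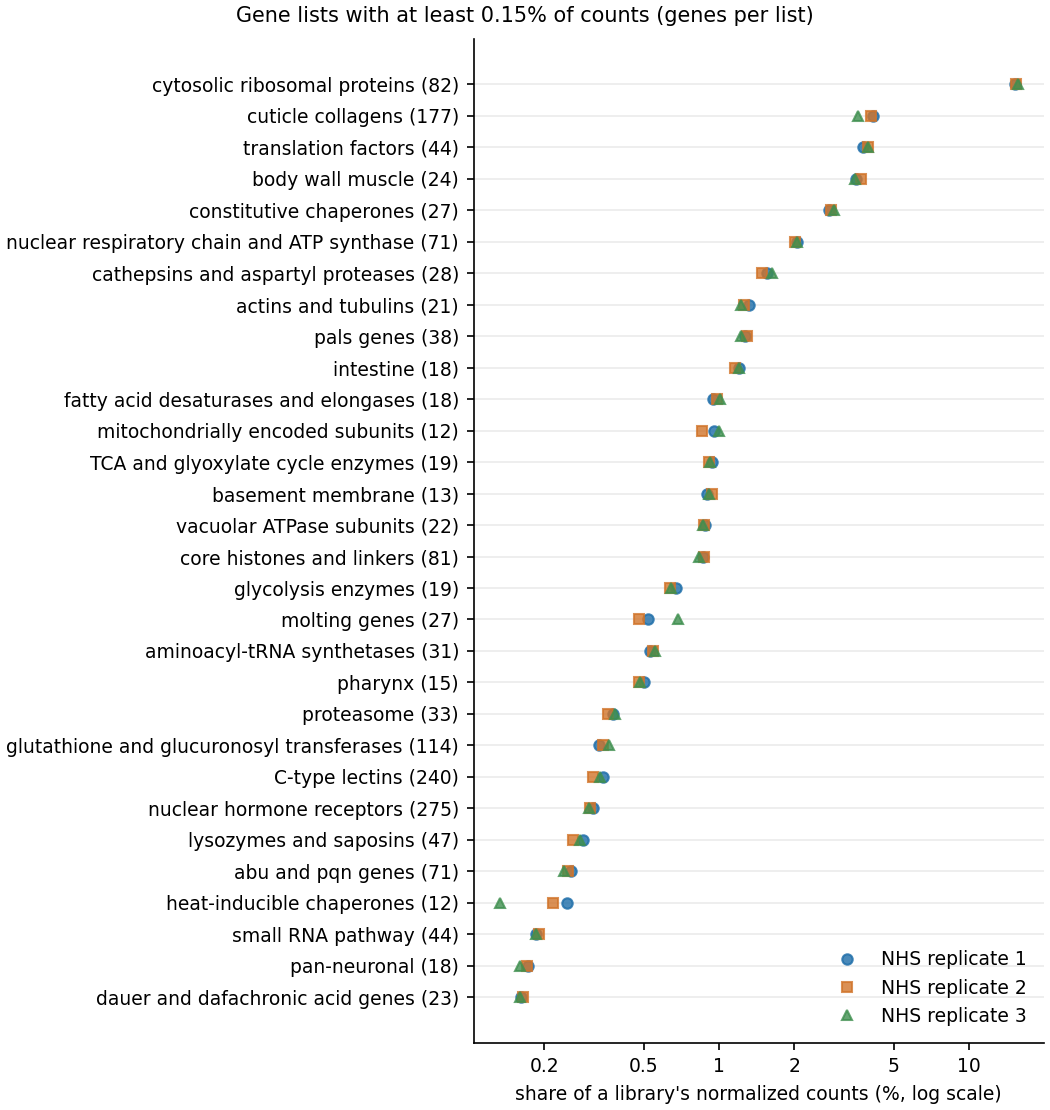
Share of a library's normalized counts (%, log scale) in each gene list that held at least 0.15% on average, with the number of genes in parentheses and 1 symbol per NHS replicate. Ribosomal proteins lead at 15.4%, the 3 symbols of most lists overlap, and replicate 3 stands apart for cuticle collagens (3.59%), molting genes (0.683%) and heat-inducible chaperones (0.133%).

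Of the marker lists, that of body wall muscle held the largest share, with 3.54, 3.69 and 3.50% of the counts in 24 genes. *unc-54* made up 26.2% of that share. Cuticle collagens, which the epidermis makes, were counted in another list, at 4.14, 4.05 and 3.59%. The lists also differ in the number and length of their genes, so these shares do not rank tissues. *myo-3*, the second myosin of the thick filaments, had 82984, 85086 and 81461 normalized counts. Per kilobase *unc-54* stood at 51636 ± 3790 and *myo-3* at 14081 ± 308 (SD, n = 3), so the values of both myosins lay far apart compared with their spread. Paramyosin, *unc-15*, the core of the thick filament, stood at 29889 per kilobase and was chosen after its value was seen. *hlh-1*, the muscle transcription factor, was the lowest of the list, with a mean of 286.

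The pharynx, the feeding pump, has its own myosins. *myo-1* had 69329, 66434 and 68271 normalized counts and *myo-2* had 56191, 55041 and 54864, and the 15 genes of the list held 0.488% ± 0.011. Actins and tubulins held 1.27% ± 0.048. *act-1* had 116593, 103682 and 99559, the intestinal actin *act-5* had 59107, 57265 and 56961, *act-3* had 57872, 58733 and 55121 and *act-4* had 53213, 51737 and 47721. The protein sequences of *act-1* and its close copies are nearly identical, and the split of reads among them is uncertain.

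Genes of the extracellular matrix came in 2 sets. Basement membrane genes held 0.916% ± 0.021 in 13 genes, led by the type IV collagens *let-2* (71006, 80574 and 75805) and *emb-9* (63699, 66754 and 66178) and by *unc-52*, the perlecan (53436, 57853 and 54363). Both collagen chains stood close together per kilobase, *let-2* at 14363 ± 907 and *emb-9* at 12421 ± 308.

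Cuticle collagens took up 4.14, 4.05 and 3.59% of the counts, in 177 genes. The share was unevenly divided, and the 10 highest genes held 75.2% of it. At least 100 normalized counts in every library were found for 69 of the collagens, against 9973 of all 20213 genes. In all libraries 2 were at 0, 1.13% against 7.3% of all genes. *col-117* had 159905, 155705 and 138720, *col-3* had 142685, 158766 and 132010, *col-166* had 128228, 137874 and 115253, and *col-167* had 125589, 128565 and 117857. *col-117* (8822962 to 8824195) and *col-3* (8824783 to 8826013) lie side by side on chromosome IV, and *col-166* (6280016 to 6280921) and *col-167* (6323488 to 6324393) lie on the X chromosome. All 4 were lowest in replicate 3.

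Other lists of cuticle genes held smaller shares of the counts. Gene by gene this did not hold for all of them, with a median of 1737 for molting genes beside 62.1 for cuticle collagens. The 35 cuticlins, proteins of the cross-linked cuticle core, held 0.0161% of the counts, and the highest, *cutl-10*, had 723, 660 and 656. Molting genes held 0.522, 0.478 and 0.683% and were led by *fbn-1*, a fibrillin of the apical matrix (35175, 37844 and 47449), *noah-1* (29898, 24953 and 42243) and *noah-2* (21263, 19163 and 31947), both of the larval apical matrix. Of these genes, all 3 were highest in replicate 3. Hedgehog-related peptides, a family that expanded in nematodes while the canonical Hedgehog pathway was lost, held 0.0610% in 59 genes. Of these, 27 reached 10 normalized counts in all libraries, 45.8% against 66.6% of all genes. Among them *wrt-10* had 5143, 3850 and 8192 and *grd-13* had 3789, 3990 and 2842.

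The intestine is the organ of digestion and fat storage. The 18 marker genes held 1.19% ± 0.026 of the counts, led by *asp-1* (143412, 141961 and 156104). Cathepsins and aspartyl proteases, which digest bacterial protein, held 1.55% ± 0.075 in 28 genes, with *asp-6* at 62383, 58047 and 62866, *asp-3* at 58032, 58438 and 63881 and *cpr-5* at 48078, 48289 and 50935, while *asp-15*, *asp-18* and *asp-19* were listed at 0 in all libraries. Lysozymes and saposins, which attack bacterial walls and membranes, held 0.276% ± 0.013. *spp-14* had 14426, 15132 and 15550 and *lys-1* had 15098, 13910 and 14079.

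Fat synthesis and pH regulation were also well represented. Fatty acid synthesis, desaturation and elongation genes held 0.981% ± 0.030 in 18 genes, and *fasn-1* alone (121351, 129986 and 146389) made up 41.7% of this. *pod-2*, the acetyl-CoA carboxylase, had 50865, 59952 and 54024, and *fat-2*, a desaturase, had 23245, 22552 and 22337. The 22 subunits of the vacuolar ATPase, the proton pump, held 0.875% ± 0.0086, with *vha-13* at 41088, 41481 and 40074. *elt-2*, the regulator of intestinal genes, averaged 813 and was chosen after its value was seen.

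Chaperones that are present without stress held 2.81% ± 0.063 in 27 genes. All 27 had at least 1000 normalized counts in every library, against 3989 of all 20213 genes. *hsp-90* had 130437, 134851 and 127026, *hsp-1*, the constitutive HSP70, had 119684, 123304 and 118474, and *crt-1*, the calreticulin of the endoplasmic reticulum, had 96426, 98592 and 110255. The 33 proteasome genes held 0.373% ± 0.013 and lay within a narrow range, with 32 of them above 1000 in every library and *rpn-2* highest (8869, 8616 and 8908).

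Neuronal genes were detected broadly and held a small share of the counts. The median of the pan-neuronal list was 2303, beside 107 for all genes. All 18 genes of the pan-neuronal list passed 100 normalized counts in every library, against 9973 of all 20213 genes. Together the 18 genes held 0.168% ± 0.0071 of the counts. *egl-3*, which processes neuropeptides, had 8069, 7755 and 7059, and *unc-13*, needed for synaptic vesicle release, had 6811, 6626 and 6185. Transmitter genes of several neuron classes were present. *unc-25*, which makes GABA, had 5435, 4905 and 4889, *unc-17*, which loads acetylcholine into vesicles, had 1121, 1133 and 1072, and *eat-4*, which loads glutamate, had 768, 731 and 675.

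Other neuron classes were also present. The touch receptor tubulins *mec-12* (5839, 6060 and 5322) and *mec-7* (4396, 4851 and 4144) led their list of 7 genes. *cat-4*, which makes a cofactor for serotonin and dopamine synthesis, had 2067, 1935 and 1829. *dat-1*, the dopamine transporter, had 282, 242 and 222. The 3 coelomocyte markers stood between 387 and 647 on average, and *vap-1* of the amphid sheath glia had 1844, 1632 and 1828. All 14 genes of the hypodermis and seam list, all 6 of the excretory canal list, 6 of 7 glial genes and 13 of 14 genes of the somatic gonad had at least 10 normalized counts in every library. That level was reached by 66.6% of all genes.

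Neuropeptide genes were mostly detected, and insulin-like peptide genes less often than all genes. Of 31 *flp* genes, which encode FMRFamide-like peptides, 30 had at least 10 normalized counts in every library, a share of 96.8% against 66.6% of all genes, and *flp-1* was the highest (1898, 2029 and 2182) while *flp-23* was at 0. Of 71 *nlp* genes 64 passed the same limit, and *nlp-24* stood far above the others with 10753, 10288 and 9077. Of 40 insulin-like peptides 20 did, 50%, with *ins-33* highest (1961, 1506 and 1623). Ion channel genes were mostly above the limit as well, with 64 of 68 potassium channels and 86.4% of the ligand-gated channels in this group. *twk-18*, a muscle potassium channel, had 2681, 3195 and 2795 and *unc-49*, the GABA receptor of muscle, had 3050, 2748 and 2528.

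Germ cell genes held a small share of the counts, and the median of their list was 608, beside 107 for all genes. *glh-1*, an RNA helicase of the germ granules, had 3398, 3433 and 3454 normalized counts, *pgl-1*, another granule protein, had 2210, 2297 and 2105, and the 21 genes of the list held 0.0659% ± 0.0015. Meiosis genes were lower, with a median of 134, and all of them were above 10 in every library, against 66.6% of all genes. Replication and cell cycle genes had a median of 650, and *rnr-1*, the ribonucleotide reductase, had 2362, 2160 and 2847. Core and linker histones held 0.856% ± 0.021 in 81 genes, with *his-66* highest at 13368, 12436 and 11888. Of the 253 genes averaging at least 10 whose values were identical to those of another gene, 24 were histones. Histone copies cannot be told apart by their reads. Other sets join differently named genes at low counts, such as *mtl-1* and *nhr-251*, both with 19.7, 20.9 and 16.9. Identical values alone therefore do not mark copies.

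The marker lists of other stages and of the male bear on the stage label, and they differed. Of the 6 vitellogenins, the yolk proteins of adults, *vit-4* had 18.7, 29.2 and 25.7 normalized counts, *vit-1* 9.83, 20.0 and 11.5 and *vit-6* 14.3, 12.1 and 12.9. *vit-5* averaged 1.54, *vit-2* averaged 2.45 and *vit-3* was at 0. The adult collagen *col-19* had 6.88, 2.51 and 9.76, and *bli-1*, a collagen of the adult cuticle struts, had 39.8, 47.8 and 48.1. Of the 31 major sperm protein genes 10 were at 0 in all libraries, 32.3% against 7.3% of all genes. A level of 10 in all libraries was reached by 3, 9.68% against 66.6% of all genes. The highest was *msp-32* (18.7, 35.9 and 36.4), and values of these close copies are uncertain. *spe-15*, a myosin, was the single sperm list member above 100, with 728, 614 and 718.

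Of 14 early embryonic genes, 2 had at least 10 normalized counts in all libraries, the highest being *ceh-51* with 45.2, 39.2 and 62.97, and *tbx-35* and *tbx-38* were at 0, and the median of the list was 1.22. Of 10 male-specific genes 5 reached 10, led by *cwp-4* with 148, 108 and 98.4, and the median was 11.4. The oocyte and eggshell list was not near 0. Of its 18 genes 16 had at least 10 normalized counts in every library, 88.9% against 66.6% of all genes, with a median of 59.6 beside 107 for all genes. The highest were *cbd-1*, a protein of the eggshell (1388, 1425 and 1298), *mex-3*, an RNA-binding protein (680, 678 and 639), *chs-1*, a chitin synthase (304, 298 and 268), and *spn-4*, another RNA-binding protein (292, 255 and 266). Which cells these counts come from was not tested.

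The genes of the sex pathway were detected at levels from near 0 to a mean of 5230 normalized counts. *xol-1*, the switch that male embryos turn on, had 2.24, 1.90 and 2.02 normalized counts, and *her-1*, the male signal, had 3.68, 6.26 and 8.31. *tra-1*, the final regulator of female fate, had 4659, 4698 and 4372, *tra-2* had 1985, 1956 and 1887 and *fem-1* had 1848, 1761 and 1777. *sdc-2*, which recruits the dosage compensation complex to the X chromosome in hermaphrodites, had 2333, 2568 and 2371, and *dpy-27*, a subunit of that complex, had 5118, 5291 and 5280. *fem-3* had 105, 72.6 and 88.6, followed by *fog-1* (315, 388 and 312), *fog-3* (128, 121 and 113) and *fog-2* (72.1, 80.0 and 81.5), which act in the choice of sperm in the germline. Of the male regulators, *mab-3* averaged 15.97 and *dmd-3* averaged 6.90.

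The heterochronic genes set the order of larval stages. All 19 had at least 10 normalized counts in every library, against 66.6% of all genes. *lin-14*, which promotes early larval fates, had 1677, 1733 and 1568 normalized counts, *hbl-1*, which acts in L2, had 1525, 1770 and 1479, and *lin-28*, which promotes L2 fates, had 580, 648 and 498. *lin-41* had 5868, 6228 and 5745 and *lin-29*, which triggers adult fates, had 288, 270 and 300. *daf-12*, the nuclear receptor that couples stage and the dauer decision, had 5194, 5155 and 4914, and *dre-1*, an F-box protein of the molting clock, had 8996, 8662 and 10648. mRNA levels do not show the later control of several of these genes by small RNAs.

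The remaining members were *blmp-1* (3265, 3287 and 3110), *sea-2* (2552, 2713 and 2370), *nhr-85* (2020, 2306 and 2045), *nhr-23* (1726, 1663 and 1823), *kin-20* (1229, 1363 and 1402), *nhr-48* (1188, 1376 and 1216), *lin-66* (1179, 1196 and 1187), *lep-2* (826, 770 and 788), *nhr-25* (656, 624 and 458), *lin-46* (121.9, 140 and 124) and *mab-10* (95.2, 98.6 and 167). *lin-42*, the worm relative of the clock gene Period, was the exception in spread, with 1322, 1006 and 2204, 2.19-fold higher in replicate 3 than in replicate 2. The dauer genes *din-1* (10907, 11136 and 11246), a partner of DAF-12, and *daf-2*, the insulin receptor (5115, 5433 and 5071), were the highest of their list of 23.

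Families of transcription regulators were detected about as often as all genes or somewhat more often. Of 275 nuclear hormone receptors, a family greatly expanded in worms, 206 had at least 10 normalized counts in every library, 74.9% against 66.6% of all genes. *nhr-97* was the highest, with 12456, 11825 and 11282. Of the homeobox and bHLH factors 70.4% did, near the share of all genes. The highest was *hif-1*, the factor of the response to low oxygen, with 10737, 10587 and 10071. Small RNA genes were detected in 43 of 44 cases, 97.7% against 66.6% of all genes. Among them *rde-12*, an RNA helicase, had 6116, 6622 and 6284 and the Argonaute *alg-1* of the miRNA pathway had 4133, 4245 and 4173.

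Detoxification and defence families were mixed. Of 114 glutathione and glucuronosyl transferases 88.6% passed 10, with *ugt-22* at 6326, 7100 and 8865, and of 75 cytochrome P450 genes 60 did, with *cyp-13A2* at 5650, 5225 and 6086. C-type lectins, secreted sugar-binding proteins, reached the limit in 106 of 240 genes, and *clec-63* alone (44239, 41217 and 43506) made up 40.2% of the family's counts. The other high lectins were *clec-50* (12505, 11835 and 12496) and *clec-41* (6807, 6113 and 6001). Of 71 *abu* and *pqn* genes, which carry glutamine- and asparagine-rich stretches, 47 passed, 66.2% and close to the 66.6% of all genes, and of 34 globins 32 did, 94.1%, led by *glb-1* (2033, 1578 and 1402).

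**Figure D3:**
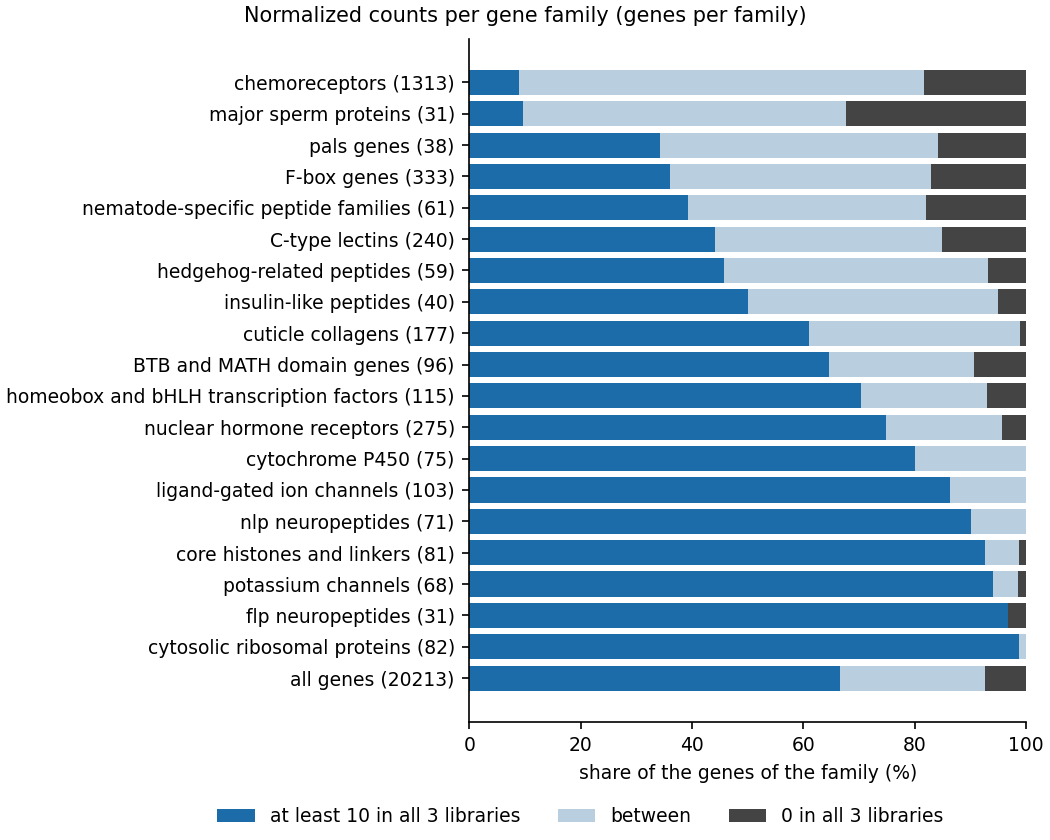
Share of the genes (%, horizontal axis) in 19 selected families and in all genes with at least 10 normalized counts in all 3 libraries (blue), at 0 in all 3 (dark grey) and between (pale), with the number of genes in parentheses. Among those drawn, chemoreceptors and major sperm proteins have the smallest blue parts (8.99% and 9.68%), ribosomal proteins the largest (98.8%), and all genes stand at 66.6%.

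Chemoreceptors, the largest gene family of the worm, were weakly represented. The 1313 genes shared 0.0311% of the counts. At least 10 normalized counts in all libraries were found for 118, 8.99% against 66.6% of all genes, and 241 were at 0 in all 3, 18.4% against 7.3% of all genes. The median member had a mean of 1.48. The highest were *srr-4* (1137, 1292 and 1265), *srv-1* (709, 650 and 692), *srsx-34* (737, 634 and 654) and *str-176* (712, 616 and 524), and only *srr-4* passed 1000.

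Within the chemoreceptors, subfamilies differed in the share at 0, which was 7.3% over all genes. The share was 39.4% of the 109 *srw* genes, 35.9% of the 39 *srj* genes, 35.7% of the 70 *srbc* genes, 20.7% of the 193 *str* genes and 18.2% of the 220 *srh* genes, against 4.92% of the 61 *sri* genes and 1.85% of the 54 *sre* genes. With 10 or more counts in all libraries the *sre* genes stood above the *sri* genes, 14 of 54 against 3 of 61. Both shares, 25.9% and 4.92%, were under the 66.6% of all genes. These are counts of genes, many of them similar in sequence, and were not tested.

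F-box genes, which mark proteins for degradation and form another expanded family, were split by subfamily. Of the 333 genes, 57 were at 0 in all libraries, 17.1% against 7.3% of all genes, and 45 of these were among the 106 *fbxb* genes, 42.5% of that subfamily, while 6 of 177 *fbxa* genes were at 0. The highest were *fbxa-72* (1361, 1550 and 1461) and *fbxa-65* (461, 483 and 479). BTB and MATH domain genes were at 0 in 9 of 96 cases, 9.38% and near the share of all genes, and *math-33*, a ubiquitin protease, was the highest (5745, 5678 and 5439). Nematode-specific peptide families were at 0 in 11 of 61 cases, 18.03%, with *nspc-20* highest (3779, 2683 and 3256).

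The 1475 genes at 0 were not spread evenly over families or chromosomes. Chemoreceptors, 1313 of all 20213 genes, made up 16.3% of them. Of the genes at 0, 890 carry only a sequence name, and the share of such names among all genes was not counted. Their median coding length was 632 bases, against 1008 bases for the other genes. Chromosome V held 517 of them, 35.1%, and 10.4% of its 4995 genes were at 0, against 2.62% of the 2670 genes of chromosome III. On the X chromosome 5.22% of 2756 genes were at 0. With each chromosome divided into 3 parts of equal length, 4.15% of the 7573 genes in the middle parts were at 0, against 9.21% of the 12524 genes in the outer parts, and the median level was 206 in the middle and 64.6 in the outer parts.

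The chromosomes also differed in their share of counts. Chromosome I held 20.9% of the counts with 2891 genes and chromosome III 19.7% with 2670 genes, while chromosome V held 16.3% with 4995 genes and the X chromosome 12.5% with 2756. Among genes with at least 10 normalized counts in all libraries, the median per kilobase was 494 on chromosome III, 469 on I, 332 on X and 290 on V.

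The spread between replicates fell with abundance. For the 3661 genes with a mean from 10 to 100, the median CV was 16.7%, beside a median counting error of 15.9% at that depth. In 46.4% of these genes the CV was at or under the counting error. For the 6070 genes from 100 to 1000 it was 6.92% against 5.004% from counting, for the 3641 genes from 1000 to 10000 it was 4.74% against 2.06%, and for the 518 genes above 10000 it was 3.85% against 0.660%. After the counting part was taken out, the median spread was 4.52, 4.24 and 3.77% in the last 3 classes. A median CV over 3 libraries runs below the true spread, so the spread beyond counting error is a low estimate in every class. Over all 13890 genes averaging at least 10, the median SD of log2(normalized count + 1) was 0.11.

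**Figure D4:**
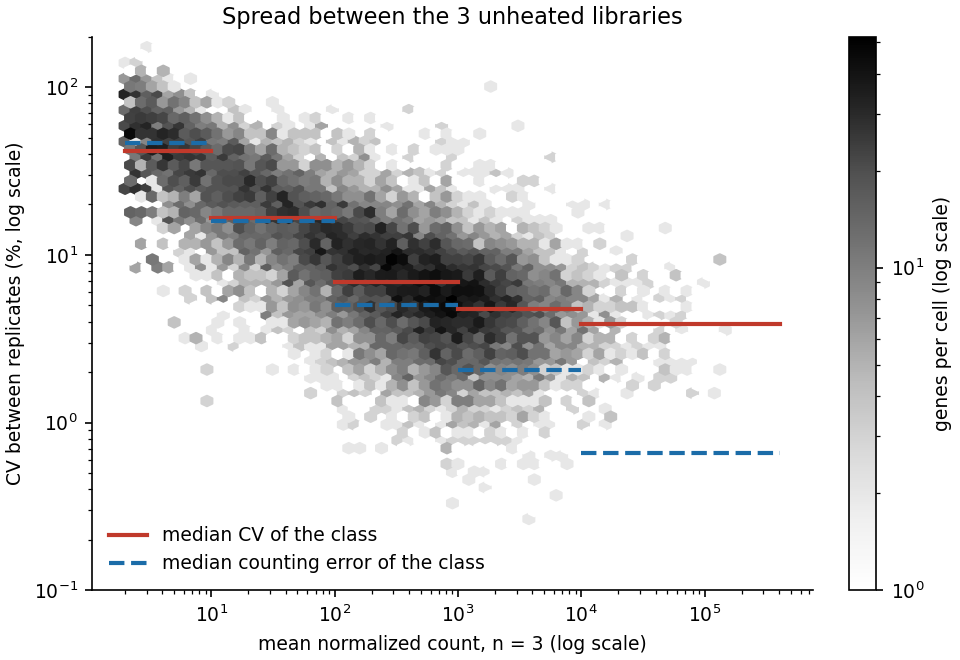
CV between the 3 NHS replicates (%, log scale) against the mean normalized count (log scale) for genes averaging at least 2, shaded by the number of genes per cell, with the median CV (red) and the median counting error (blue, dashed) of 5 abundance classes. From a mean of 10 to 100 the median CV is 16.7% and the counting error 15.9%, and above 10000 they are 3.85% and 0.660%. A median CV over 3 replicates runs below the true spread.

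The least variable genes among those averaging 1000 or more were *timm-17B.1*, of the mitochondrial import machinery (4741, 4749 and 4740), *hgap-2* (6055, 6033 and 6048), *rpb-5*, a subunit of the RNA polymerases (1845, 1839 and 1839), *Y69H2.3* (4148, 4164 and 4159), *Y67D8C.9* (1718, 1722 and 1714), *C18B2.3* (3978, 3978 and 3960), *mrpl-10* of the mitochondrial ribosome (1257, 1261 and 1254), *dcr-1*, the Dicer enzyme (3418, 3402 and 3401), *ain-2* of the miRNA pathway (3850, 3872 and 3865) and *pmt-2*, which makes phosphatidylcholine precursors (20976, 20980 and 21090). Their differences are smaller than counting error alone gives.

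Genes often used as references in RT-qPCR differed in spread. *cdc-42* had 3014, 3048 and 3015 normalized counts, a CV of 0.639%, *iscu-1* had 1411, 1437 and 1440 (1.14%), *tba-1* had 18737, 19029 and 19284 (1.44%), and *tba-2* had 32995, 32058 and 32773. *rpb-12* (391.9, 392.3 and 403), *eif-3.C* (16975, 17467 and 17593), *pmp-3* (1318, 1322 and 1267), *cyc-1* (15446, 15074 and 15909) and *act-2* (9026, 8735 and 8313) had CVs between 1.62 and 4.13%. *gpd-2* (29227, 25949 and 26722), *act-1* and *ama-1*, the large subunit of RNA polymerase II (9821, 11687 and 11201), were wider at 6.28, 8.34 and 8.88%. *ubc-22* was low and wider still, with 55.05, 55.1 and 40.8. Counting error was not taken out of these CVs, and it falls with the level. Its median is 15.9% for genes averaging 10 to 100, 5.004% for 100 to 1000 and 2.06% for 1000 to 10000. The CVs of genes at different levels therefore do not rank them by stability.

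A log2 range of at least 1 between the replicates, a difference of at least 2-fold on the scale of log2(normalized count + 1), was found for 162 of the 10229 genes averaging at least 100, 1.58%. The pair of replicates 2 and 3 differed this much in 134 genes, 1 and 2 in 60 and 1 and 3 in 37. Without replicate 2 the number was 38, without replicate 3 it was 52, and without replicate 1 it was 131, each with 1 pair of libraries left to compare.

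Most of these genes had the same order of libraries. In 69.1% of the 162, replicate 3 was highest, replicate 1 in the middle and replicate 2 lowest, against 15.1% of all 10229 genes averaging at least 100. The members with that order had a median log2 difference from the gene mean of 0.04, -0.73 and 0.70 in replicates 1, 2 and 3. Of the 25 most variable genes 20 had this order.

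Cuticle collagens were frequent among them. Of the 76 collagen genes that averaged 100 or more, 23 had a log2 range of at least 1, 30.3% against 1.58% of all genes, and 21 of the 23 were highest in replicate 3 and lowest in replicate 2. *sqt-1* had 1770, 507 and 2757 normalized counts, *dpy-8* had 2715, 1177 and 5445, and *col-17* had 1824, 485 and 2071. The same order held for *sqt-2* (1463, 535 and 2387), *rol-6* (894, 313 and 1429), *col-90* (1013, 271 and 1094) and *lon-3* (387, 136 and 604). Mutants of *sqt-1*, *rol-6*, *dpy-8* and *lon-3* are known for an altered body shape or a twisted cuticle.

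The other collagens above that level, 53 genes with a range under 1, mostly had another order. Of these, 42 were lowest in replicate 3 and 3 had the order above, and their sum was 1291149, 1291414 and 1103275 in replicates 1 to 3, while the 23 variable ones summed to 41327, 23218 and 62156. In replicate 3 the sum of the variable set was thus its highest and that of the other set its lowest, while in replicates 1 and 2 the other set was nearly level. Each sum is from 1 library, with no test.

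Hedgehog-related peptides and molting genes followed in part. Of 16 hedgehog-related genes averaging at least 100, 8 had a log2 range of at least 1, 50% against 1.58% of all genes. Among the 8 were *wrt-1* (414, 129 and 745), *wrt-2* (380, 105 and 648) and *grl-7* (211, 33.2 and 148). Of the 16, 7 were highest in replicate 3 and lowest in replicate 2. Replicate 3 was instead the lowest in 4 genes with replicate 1 highest and in 3 genes with replicate 2 highest. Of 23 molting genes averaging at least 100, 3 had a log2 range of at least 1, against 162 of all 10229 genes at that level. Of the 23, 14 were highest in replicate 3 and lowest in replicate 2, 60.9% against 15.1% of all 10229 genes. The larvae's place in the molting cycle was not measured, and its part in these differences was not tested. *lin-42* differed in the same order, and its part was not tested either.

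**Figure D5:**
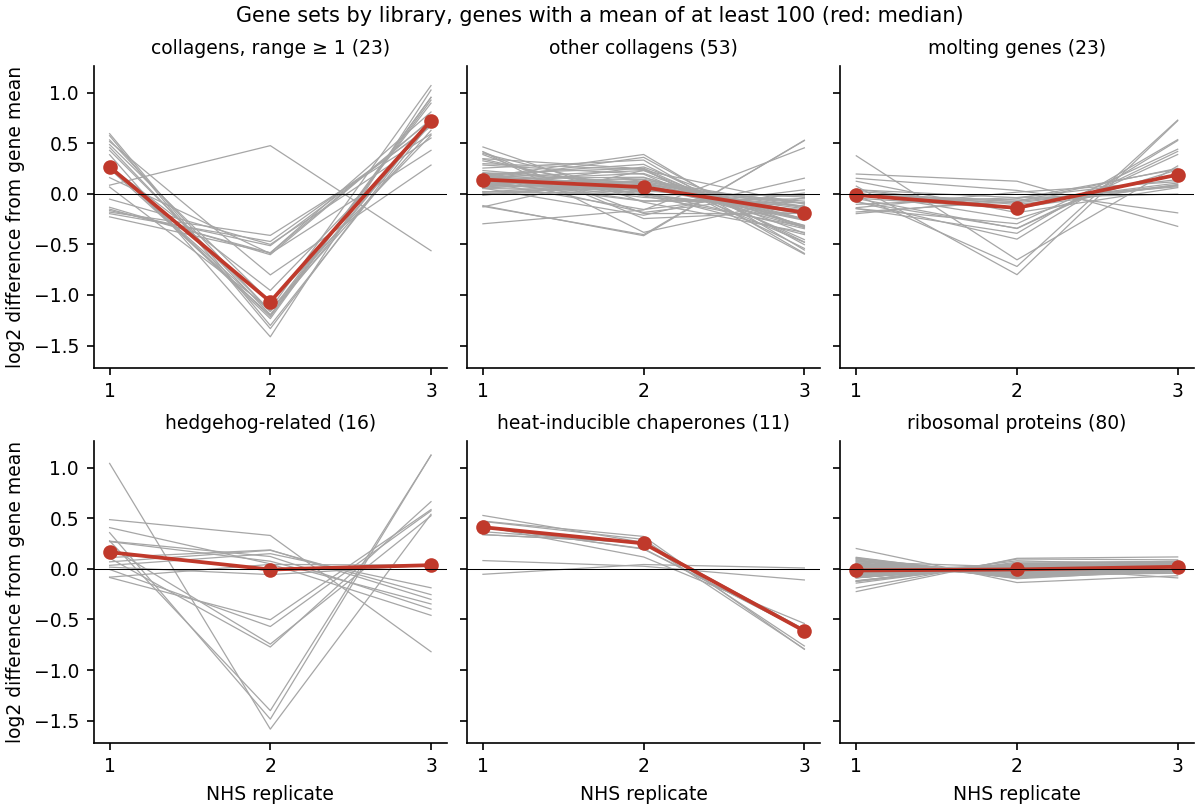
Log2 difference of each gene from its own mean over the 3 NHS replicates (vertical axis) in each replicate (horizontal axis), for 6 sets of genes averaging at least 100 (grey lines are genes, red points medians, number of genes in parentheses). The 23 variable collagens have medians of 0.27, -1.07 and 0.72 in replicates 1 to 3, the 53 other collagens 0.14, 0.07 and -0.19, the 11 heat-inducible chaperones 0.41, 0.25 and -0.61, and the 80 ribosomal proteins lie close to 0.

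Of the 25 most variable genes, *Y37A1B.7* was first, with 121.9, 25.9 and 222 normalized counts and an SD of 1.57 on the log2 scale. *F45D11.15* and *F45D11.16*, a pair of copies with identical values on chromosome II, were high in replicate 1 with 4183 against 653 and 808 in replicates 2 and 3. *argk-1*, an arginine kinase that buffers ATP, was high in replicate 3 with 8126 against 1231 and 1849 in replicates 1 and 2. *F56D2.3* (223, 59.9 and 420), *T26C5.2* (492, 133 and 887), *M03B6.3* (593, 211 and 1170), *F30H5.3* (1144, 362 and 1877), *H42K12.3* (671, 211 and 1022) and the bZIP factor gene *atf-2* (153, 50.1 and 261) followed the order of the collagens.

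*T06G6.6*, *ZK1025.3*, *C01F1.5* and *R02F11.1* shared that order too, the last with 174, 71.8 and 328. *dod-21* did not, with 192, 37.6 and 78.0.

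Genes known to be induced by heat were expressed in these unheated larvae and differed between the libraries in another order. The 12 genes held 0.247, 0.216 and 0.133% of the counts in replicates 1, 2 and 3, and 10 of the 12 had replicate 1 highest and replicate 3 lowest. The HSP70 genes *F44E5.5* and *F44E5.4*, adjacent on chromosome II from 11757107 to 11761861, supplied most of this. *F44E5.5* had 41772, 35795 and 20411 normalized counts and *F44E5.4* had 14563, 12572 and 7148. Their ratio was 2.87, 2.85 and 2.86 in the 3 libraries. As near-identical copies they may share reads, and the split between them is uncertain. Without both, the share was 0.0726, 0.0678 and 0.0477%.

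The small heat shock proteins showed the same order. *hsp-16.1* had 5269, 4863 and 2654 normalized counts, *hsp-16.2* had 1157, 1041 and 480 and *hsp-16.41* had 1082, 957 and 460. The values of *hsp-16.48* equalled those of *hsp-16.49*, with 2250, 2129 and 1173, and *hsp-16.11* had 467, 378 and 239. *hsp-70* had 1248, 1038 and 499, 2.50-fold higher in replicate 1 than in replicate 3. Of the 11 members averaging at least 100, 5 had a log2 range of at least 1, 45.5% against 1.58% of all genes. The 5 include both *F44E5.4* and *F44E5.5*, and the 11 include both *hsp-16.48* and *hsp-16.49*. The members are thus not separate observations, here or in the 10 of 12 above. Every *hsp-16* gene was at least 1.92-fold higher in its highest than in its lowest library.

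The remaining members moved little or were low. *hsp-4*, the BiP of the endoplasmic reticulum, had 7652, 7360 and 6699 normalized counts, *hsp-17* had 2024, 2165 and 2114 and *hsp-12.6* had 4.92, 3.34 and 3.55. The constitutive chaperones did not share the order, with median log2 differences of -0.02, 0.02 and -0.01. No label gives a handling difference between the 3 replicates, and the source of the differences in the heat-inducible genes was not tested.

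Several genes followed elsewhere in the study were near the limit of detection without heat. *fbxa-102*, an F-box gene, was at 0 in all 3 libraries, the chemoreceptor gene *str-96* had 0.983, 2.51 and 5.32 normalized counts, and *nhr-247*, a nuclear hormone receptor, had 6.88, 2.51 and 1.77. The collagen genes *col-88* (9.10, 9.64 and 8.21) and *col-52* (9.83, 10.9 and 4.43) and the gene *C01G6.3* (7.86, 1.67 and 6.21) were also under 11 in every library.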

How the data were processed

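Whole L2 larvae of N2 at 20 °C gave 3 libraries. Per the study's methods, the authors made libraries with a stranded total RNA kit, assigned reads to mRNA transcripts with Salmon 0.13.1 and called changed genes with DESeq2 1.18.1. The deposited unit is a signal, labelled as normalized counts of the 6 N2 libraries together. The scaling itself is not given in the sources used here and was taken to be that of DESeq2. Some 90.4 to 90.9% of values under 20 were whole multiples of 1 read's worth within 0.05 reads, so counts were not recovered and no count model or test was run. The 3 columns of heated libraries were not used.

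Shares, means, SDs and CVs were computed with Python 3.11.15, pandas 2.3.3 and numpy 2.4.6, and log2 values used a pseudocount of 1. Counting error was 1 over the square root of the estimated reads. The spread beyond counting error was tested on simulated data by its root mean square over genes. The medians given above were not part of that check. Levels per kilobase used the longest annotated coding region (Ensembl release 115, WBcel235, the assembly also called ce11). Names were found for 20093 of 20213 genes, 19868 directly and the others by position. There were 67 gene lists, 21 of them of cell type and stage markers. The members and lists were chosen with earlier results of these data known. Genes were named by a rule, and not every gene under it is given. A few others are marked in the text as chosen after their values were seen. The rule takes the 30 highest by counts, the 20 highest per kilobase, up to 4 of each list, list members at 0, all members of 5 lists, the 25 most and 10 least variable, and genes the study follows. Alternatives were other thresholds, pseudocounts, scalings and lengths, and leaving out each replicate.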

Additional observations from a re-analysis of the deposited data

How the results depend on the processing

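Leaving out each replicate in turn gave 7.47 to 7.64% of the counts in the 10 most abundant genes, 289 to 293 genes holding 50% of the counts, 1783 to 1844 genes at 0, 13582 to 13595 genes with at least 10, 15.3 to 15.5% in ribosomal proteins, 306 to 321 chemoreceptors at 0, a median SD of 0.0810 to 0.0906 and 38 to 131 genes with a log2 range of at least 1. With 2 libraries left, fewer values have to be 0 and a range spans fewer libraries by construction. Per kilobase of coding length, the 10 highest genes held 8.82%, 149 genes held 50% and ribosomal proteins held 32.6%, and per kilobase of the longest transcript, an alternative added after the data were seen, the 10 highest held 6.67%. A mean under 1 in place of 0 in all libraries gave 3117 genes and 564 chemoreceptors, and at most 3 in every library gave 3940 and 732. With libraries thinned to the depth of the smallest, 1549 genes would be at 0. The median SD was 0.133 with no minimum mean and 0.0837 with a minimum of 100, and the number of genes with a range of at least 1 was 579 with a minimum mean of 10 and 35 with 1000. Pseudocounts of 0.5 and 5 and equal totals gave median SDs of 0.103 to 0.106, beside 0.105 as reported, and 157 to 163 genes with such a range, beside 162. A minimum of 5 in place of 10 gave 14287 genes and a minimum of 20 gave 12575, beside 13453. No paired analysis was possible because only 1 group was described and no test was run. Groups of 3 are too small for a search for single outlying libraries.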
